A study of Xenopus laevis with 46 samples.

Results

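The secreted Wnt antagonists Dkk1, Frzb and the secreted Frizzled-related proteins (sFRPs) were followed at the RNA level in embryos of the frog Xenopus laevis. The members are the gene models whose best human match is DKK1, DKK2, DKK3, FRZB, SFRP1, SFRP2, SFRP5 or WIF1, without the sizzled rows. A row also had to reach 1 RPKM (reads scaled by transcript length and library size) in at least 2 libraries of its stage. At stage 10.5, the early gastrula, 13 of 21 matching rows did so, in a table of 43662 rows of which 19461 reached the same level. At stage 9, the late blastula, 10 of 21 matching rows did so, and 18530 of 37005 rows in all. X. laevis is allotetraploid, and the suffixes .L and .S name the copies of a gene on its long and short subgenomes. Sizzled rows were kept out because that Frizzled-related protein acts on tolloid proteases and BMP signalling rather than on Wnts.

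Wnt ligands signal through Frizzled receptors and the co-receptors LRP5 and LRP6 to stabilise β-catenin. Dkk1 blocks the co-receptors from outside the cell and is a head inducer in Xenopus, whereas sFRPs and Frzb carry a Frizzled-like cysteine-rich domain and bind Wnt ligands. The Spemann organizer, on the dorsal side of the gastrula, is formed under early maternal β-catenin and then secretes inhibitors of zygotic Wnt8, which is made in ventral and lateral mesoderm.

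PolyA-selected RNA was measured in 46 libraries, 29 of stage 10.5 and 17 of stage 9, all from embryos whose strain label is Nasco. The stage 10.5 libraries were 6 of whole control embryos, 5 of dorsal and 5 of ventral half-embryos cut at stage 8, and whole embryos that had received a β-catenin morpholino (bCatMO, 3), lithium chloride (LiCl, 2), 100 pg of siamois mRNA into the marginal zone (Sia, 2), xWnt8 mRNA (Wnt8, 3) or xCer L mRNA (Cer, 3). Stage 9 was covered by whole embryos alone, with 5 libraries of controls, 3 each of Wnt8 and Cer, and 2 each of bCatMO, LiCl and Sia. Injections were made between the 2-cell and 4-cell stage, and lithium, which stabilises β-catenin, was given at the 32-cell stage. Siamois is a homeobox activator induced directly by maternal β-catenin, and Cerberus is a secreted protein that binds Nodal, BMP and Wnt ligands. Each treated library has a control that its label assigns to the same batch. They do not say whether libraries came from separate clutches, so p-values measure the spread between these samples.

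Depth recovered from the RPKM values was 24.5 to 45.0 M (megareads) in genes per library at stage 10.5 and 33.4 to 72.7 M at stage 9. Of the dorsal marker rows tested, 21 of 27 were higher in dorsal half-embryos and none lower, and 12 of 21 ventral marker rows were lower. The 4 siamois rows summed to between 639 and 661 RPKM in Sia libraries and between 7.20 and 24.3 in controls of stage 10.5. The row cer1.S reached 4247 to 5762 RPKM in Cer libraries against 59.2 to 115 in controls. The wnt8a.L row lay at 26.4 to 55.9 RPKM in the Wnt8 libraries and 43.6 to 102 in controls, and at stage 9 at 12.7 to 23.6 against 6.81 to 27.0. The injected mRNA was therefore not seen in the wnt8a rows, and these samples are called the libraries labelled Wnt8. Their siamois rows summed to between 50.5 and 114 RPKM at stage 9, against 17.8 to 27.2 in controls. At stage 10.5 the sums overlapped, at 21.1 to 57.8 RPKM against 7.20 to 24.3. A morpholino acts on translation, so β-catenin transcript gives no check of it. The siamois rows summed to 0.0487 to 0.485 RPKM in bCatMO libraries of stage 10.5 and 0.397 to 0.424 at stage 9, below all controls.

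The most abundant members of whole control embryos at stage 10.5 were the frzb rows. The level of frzb.S ran from 63.1 to 131 RPKM with a median of 83.9 over 6 controls, and that of frzb.L from 34.9 to 55.2 with a median of 44.4. The sfrp2 rows and dkk1.S followed, with medians of 20.1 for sfrp2.S, 18.1 for sfrp2.L and 12.4 for dkk1.S. Next were sfrpx.S, a row matched to SFRP2, at a median of 8.00 RPKM, and dkk1.L at 7.20. One of the rows described as crescent, an sFRP of the Xenopus organizer and anterior endomesoderm, had a median of 2.94 RPKM. It carries only the identifier Xelaev18024021m, and the other crescent row, Xelaev18025927m, had a median of 0.428. The remaining members were near or below 1 RPKM: dkkx.L, matched to DKK3, had a median of 1.36, sfrp1.S of 0.419, and the WIF1 rows Xelaev18017519m and Xelaev18021197m of 0.354 and 0.157. The human WIF1 protein binds Wnts through a domain of its own.

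The 8 matching rows that were not members at stage 10.5 were dkk2.L, dkk2.S, dkk3.L, dkk3.S, sfrp1.L, sfrp5.L, sfrp5.S and sfrpx.L. Of these, sfrp1.L alone passed 1 RPKM, in 1 library of the siamois-injected embryos at 2.66 RPKM, while the other Sia library had 0.812. The other non-members had a maximum between 0.0999 RPKM for dkk2.L and 0.834 for dkk3.S over 29 libraries. Just inside the limit, Xelaev18021197m reached 1 RPKM in 2 of the 29 libraries, sfrp1.S in 4 and Xelaev18017519m in 5. At stage 9 dkk3.S was a member, with 1 RPKM reached in 11 of 17 libraries, whereas both crescent rows, sfrp1.S and dkkx.L were not.

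The first comparison asked which antagonists differed between the dorsal and ventral half-embryos of the gastrula. Dkk1, frzb and 1 crescent row were higher dorsally, each in all 5 dorsal libraries, while sfrp2.S, sfrpx.S, dkkx.L and the WIF1 row tested had overlapping levels. The dorsal libraries held 37.7, 27.1, 24.6, 30.9 and 33.2 RPKM of dkk1.S, and the ventral libraries 0.311, 1.28, 1.37, 1.08 and 3.05. The lowest dorsal value was thus far above the highest ventral one, and the group means were 30.7 ± 5.13 (SD, n = 5) and 1.42 ± 1.00. The difference was 4.16 ± 0.32 on the log2(RPKM + 0.5) scale (limma, adjusted p = 2.07e-05), a scale that understates changes of low rows. Fewer cells of a type and less RNA per cell cannot be told apart in such bulk samples.

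The other dkk1 copy was dorsal as well but to a smaller degree. Levels of dkk1.L were 22.6, 15.4, 20.7, 13.8 and 18.7 RPKM in dorsal half-embryos and 1.78, 1.95, 4.88, 3.21 and 5.80 in ventral half-embryos. The groups did not overlap, and the log2 difference was 2.31 ± 0.29 (limma, adjusted p = 0.00138).

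Frzb, which binds and sequesters Wnt8 in Xenopus, was present in both half-embryos. Dorsal half-embryos held 142, 75.5, 63.2, 55.4 and 61.8 RPKM of frzb.L, and ventral half-embryos 13.4, 11.9, 10.2, 6.33 and 9.65. The dorsal values were higher without overlap, by 2.84 ± 0.27 on the log2 scale (adjusted p = 0.000142). The copy frzb.S had 184, 125, 89.4, 88.6 and 80.0 RPKM dorsally and 65.5, 49.8, 24.7, 28.3 and 25.4 ventrally. These groups did not overlap either, and the log2 difference of 1.58 ± 0.31 passed at an adjusted p of 0.0416. That call was lost in 9 of the 10 fits that left out 1 library (adjusted p 0.0556 to 0.132), the exception being ventral replicate 1, and also without the filter on low values (0.129) and with size factors (0.0713). Dorsal library 1 was the highest of its group for both frzb rows.

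The crescent rows were close to silent in ventral half-embryos. Xelaev18024021m had 24.6, 6.97, 3.63, 5.53 and 4.75 RPKM in dorsal half-embryos and between 0.0417 and 0.0688 in ventral half-embryos, where 21 reads were counted over 5 libraries. The log2 difference was 3.77 ± 0.40 (adjusted p = 0.000389), and it ranged from 2.95 to 6.89 over the alternative settings because the ventral level lies below the pseudocount. Xelaev18025927m had 7.80, 1.13, 1.91, 0.622 and 1.33 RPKM in dorsal half-embryos and at most 0.0839 in ventral half-embryos, with 5 reads over the group. Dorsal library 1 stood above the rest, and the log2 difference of 2.10 ± 0.44 missed the threshold (adjusted p = 0.0648). It passed with same-numbered half-embryos as a block (0.0278), without dorsal library 1 (1.64, adjusted p = 0.0167) and without dorsal library 4 (adjusted p = 0.0386). With a pseudocount of 0.1 RPKM it passed as well (3.73, adjusted p = 0.0103). Both crescent rows reached 1 RPKM only in dorsal half-embryos, so the level filter itself required them to differ in this fit.

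The sfrp2 rows, present in both half-embryos, did not pass the test between them. Levels of sfrp2.L were 27.7, 23.5, 16.9, 18.8 and 18 RPKM in dorsal half-embryos and 6.15, 9.81, 13.3, 10.5 and 13.2 in ventral half-embryos. The groups did not overlap, yet the log2 difference of 0.98 ± 0.22 missed the threshold over all rows (adjusted p = 0.0979). For sfrp2.S the dorsal range was 21.3 to 32.8 RPKM and the ventral range 9.19 to 26.5. These overlapped, and the 95% interval of the log2 difference ran from -0.17 to 0.95. For sfrpx.S the interval was -0.73 to 0.76, and its levels followed the replicate number instead, from 3.32 and 3.55 RPKM in half-embryos of number 1 to 11.1 and 10.6 in half-embryos of number 3. The log2 differences of dkkx.L and Xelaev18017519m were -0.44 and -0.20.

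In all, 5 of the 11 members tested in the half-embryos were called higher dorsally and none lower. Of 18448 tested rows, 0.678% were called in either direction. That fit left out the pairing of half-embryos by number, and with it as a block 6 members and 422 rows in all were called. The median log2 difference of those 11 rows was 1.58, beside -0.02 over all rows, but 2 of the 11 had to differ to be tested, so these figures are a description. Rows sfrp1.S and Xelaev18021197m were not tested because no half-embryo library held 1 RPKM of them. The authors' deposited table of 123 signature genes contains dkk1.S, dkk1.L, frzb.L and Xelaev18024021m. The authors chose those genes on these samples, so their presence is not independent evidence of direction.

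**Figure D1:**
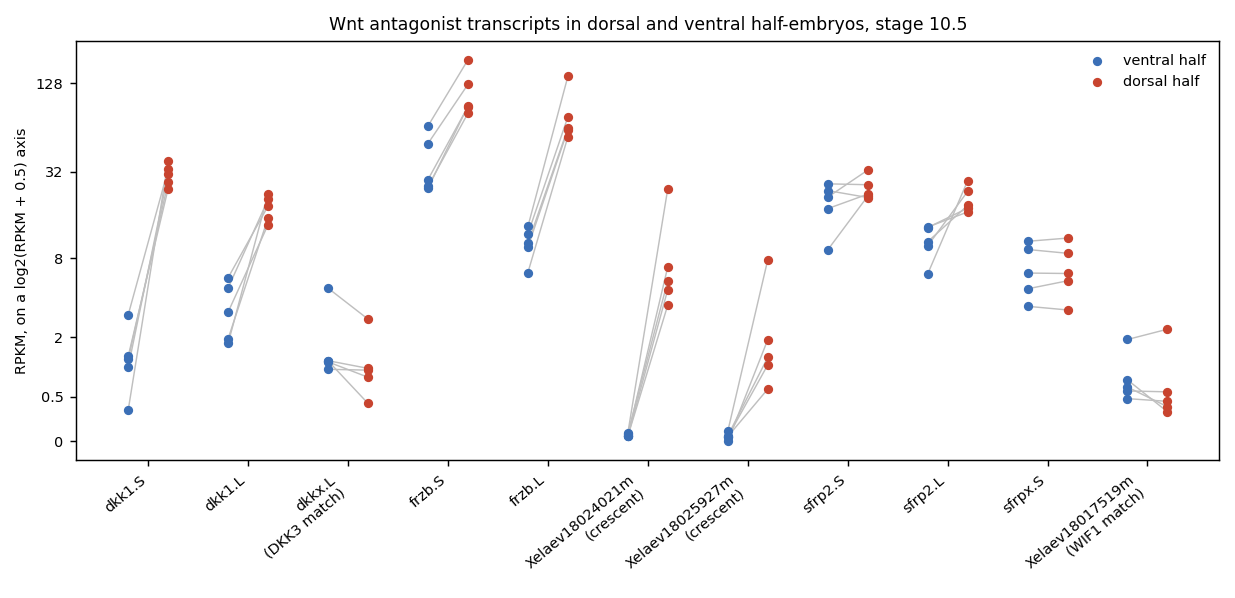
RPKM of the member rows in the dorsal and ventral half-embryo libraries of stage 10.5, 5 of each, on a log axis of RPKM + 0.5, with grey lines joining libraries of the same number. All 5 dorsal values of dkk1.S lie between 24.6 and 37.7 RPKM and all ventral values at or below 3.05, while the lines of sfrpx.S are nearly flat.

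The members differed from each other in how far they were dorsal. The dorsal-to-ventral log2 difference was compared in 55 pairs of members by an exact two-sided permutation test over the 10 libraries. Its smallest possible p is 0.00794, and it does not use the pairing of half-embryos by number. An adjusted p below 0.05 was found for 38 pairs. Both crescent rows had to differ between half-embryos to be tested, so pairs holding a crescent row could pass for that reason. The count of pairs is therefore a description, and no share over pairs of all rows was computed. The copies of dkk1 differed, dkk1.S being more dorsal by 1.85 (exact test, adjusted p = 0.0151). So did the copies of frzb, with frzb.L more dorsal by 1.26 (0.0151), and those of sfrp2, with sfrp2.L more dorsal by 0.59 (0.0257). The copy dkk1.S was also more dorsal than frzb.L, by 1.33 (0.0257). The pair dkk1.S and Xelaev18024021m differed by 0.39 (adjusted p = 0.505), and for dkk1.L against frzb.L the adjusted p was 0.316. With libraries paired by number the smallest p is 0.0625, so no pair could pass.

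The share of each copy in the RNA of its gene shows the same contrast in RPKM. In dorsal half-embryos dkk1.L made up 37.3% ± 5.34 (SD, n = 5) of dkk1 RNA, and in ventral half-embryos 72.8% ± 9.91. No ventral library was below 60.3% and no dorsal library above 45.7%. For frzb the direction was opposite: frzb.L was 40.9% ± 2.82 of the sum dorsally and 22.3% ± 5.70 ventrally. For sfrp2 the .L share was 45.7% ± 6.40 against 35.5% ± 3.33. Homeologous copies are similar in sequence, and the counting used by the authors could have split reads between them.

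The β-catenin morpholino removes the early signal that sets up the organizer, and the comparison with controls of the same 3 batches asked which antagonists depended on it. At stage 10.5 dkk1, frzb and crescent RNA fell, while the sfrp2 and sfrpx rows did not pass the test. The fall was 3.54 ± 0.21 for dkk1.S (adjusted p = 1.28e-06) and 1.99 ± 0.20 for dkk1.L (8.11e-05) on the log2 scale. Levels of dkk1.L were 1.26, 0.963 and 2.40 RPKM in the morpholino libraries and 7.36, 6.27 and 8.36 in their controls. For dkk1.S the levels were 0.416, 0.233 and 1.17 against 11.0, 12.1 and 11.8 RPKM. Neither copy overlapped with its controls, and bCatMO replicate 3 was the highest of its group for both copies. The .L share of dkk1 rose from 37.1% ± 3.34 over 6 controls to 74.3% ± 6.66 in bCatMO (n = 3), without overlap, which is close to the value of the ventral half-embryos.

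The frzb copies differed in how much remained. Morpholino libraries had 15.7, 9.29 and 19.6 RPKM of frzb.L against 37.7, 52.9 and 55.2 in their controls. There was no overlap, and the level fell by 1.72 ± 0.21 on the log2 scale (adjusted p = 0.000406). For frzb.S the values were 53.4, 62.6 and 72.6 against 63.1, 131 and 103 RPKM. These overlapped across batches although each library was below its own control, and the row fell by 0.60 ± 0.14 (adjusted p = 0.0212). The frzb.S call was lost without control 2, control 3, bCatMO 2 or bCatMO 3 (adjusted p 0.0535 to 0.127). It was also lost without the level filter (0.0629) and without the batch term (0.607).

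Crescent RNA was almost absent after the morpholino. Xelaev18024021m was at 0.0736, 0.0114 and 0.0674 RPKM, on 13 reads in all, against 3.09, 2.78 and 1.89 in the same-batch controls. All morpholino values were lower, and the log2 level fell by 2.47 ± 0.25 (adjusted p = 9.96e-05). Xelaev18025927m had 0 reads in the 3 morpholino libraries and 45 reads in the matching controls. Against a floor of 3 reads per library that is at least 3.93-fold lower, but the fitted difference of -0.86 ± 0.31 missed the threshold (adjusted p = 0.126). Without control 6, which belongs to another batch and had the highest control level, its adjusted p was 0.0448. The row also passed with a pseudocount of 0.1 RPKM (-2.31, adjusted p = 0.00964) and in limma-voom (-4.57, 0.02865).

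One low member went the other way. dkkx.L had 1.26, 3.07 and 2.96 RPKM in morpholino libraries and 0, 1.72 and 1.51 in controls, each library above its own control. The groups overlapped, and the log2 rise of 1.09 ± 0.30 had an adjusted p of 0.0477. It passed in 1 of 16 alternative settings. Leaving out any of 8 libraries gave an adjusted p from 0.0548 to 0.213 (controls 1, 3, 4, 5 and 6 and each morpholino library). The sfrp2.L level was 13.3, 12.6 and 15.1 RPKM against 15.8, 18.8 and 17.5, lower without overlap, with a log2 difference of -0.34 ± 0.23 (adjusted p = 0.452). Of 13 members tested, 5 were lower and 1 higher, where 7.15% of 18834 rows were called.

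Lithium and siamois mRNA ask the converse question, what is gained when dorsal β-catenin signalling or a target of it is raised. Both copies of dkk1 rose after either treatment. LiCl libraries had 37.1 and 39.9 RPKM of dkk1.S against 11.0 and 11.8 in their batch controls, a log2 rise of 1.59 ± 0.24 (adjusted p = 0.00177). For dkk1.L the levels were 25.7 and 35.8 against 7.36 and 8.36 RPKM, a rise of 1.84 ± 0.23 (adjusted p = 0.000796). Neither overlapped with any of the 6 controls. Both LiCl values of dkk1.L were also above the dorsal half-embryos, which ended at 22.6 RPKM.

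No frzb or crescent row passed the test in lithium-treated embryos. The frzb.S row had 63.6 and 102 RPKM against 63.1 and 103, and the 95% interval of its log2 difference was -0.48 to 0.21. For frzb.L the levels were 47.0 and 62.3 against 37.7 and 55.2 RPKM, with an interval of -0.48 to 0.58. The crescent row Xelaev18024021m had 3.27 and 2.71 RPKM against 3.09 and 1.89, a difference of 0.11 ± 0.29 (adjusted p = 0.853). The other crescent row, Xelaev18025927m, had 0.796 and 1.25 RPKM against 0.336 and 0.639. Both were above their batch controls, but control 6, of another batch, held 1.85 RPKM. The 95% interval of the log2 difference ran from -0.10 to 1.47 (adjusted p = 0.234).

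Both sfrp2 rows and sfrp1.S were called lower after lithium, each call being lost without 1 of the LiCl libraries, whereas sfrpx.S did not pass (-0.18 ± 0.09, adjusted p = 0.220). LiCl library 1 had 4.13 RPKM of sfrp2.S and 4.47 of sfrp2.L, whereas LiCl library 2 had 19.6 and 14.5. The controls of the 2 batches had 17.2 and 24.5 RPKM of sfrp2.S and 15.8 and 17.5 of sfrp2.L. The fitted falls were 1.08 ± 0.26 for sfrp2.S (adjusted p = 0.0189) and 0.98 ± 0.27 for sfrp2.L (0.0328). Without LiCl library 1 the differences were -0.32 (0.142) and -0.24 (0.494), neither past the threshold. Without control 1 the adjusted p was 0.120 for sfrp2.S and 0.165 for sfrp2.L. The low member sfrp1.S had 0.101 and 0.0671 RPKM on 9 reads against 0.378 and 0.963 in controls. Its level fell by 1.00 ± 0.21 on the log2 scale (adjusted p = 0.00892), but not past the threshold without LiCl library 2 (0.157). In LiCl embryos 2 members were higher and 3 lower of 13, where 14.2% of all tested rows were called.

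Siamois mRNA raised dkk1 and both crescent rows. The Sia libraries had 38.8 and 50.7 RPKM of dkk1.S against 12.1 and 11.8 in same-batch controls, a log2 rise of 1.86 ± 0.24 (adjusted p = 0.000532). For dkk1.L they had 15.2 and 23.7 against 6.27 and 8.36 RPKM, a rise of 1.29 ± 0.23 (0.00665). No Sia value overlapped with a control, although the dkk1.L call was lost without Sia 1, Sia 2 or control 3 (adjusted p 0.0541 to 0.0943).

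The rarer crescent copy had the larger fitted rise of the pair, a difference that was not tested. Sia libraries held 4.08 and 4.95 RPKM of Xelaev18025927m against 0.280 and 0.639, higher by 2.42 ± 0.36 on the log2 scale (adjusted p = 0.00164). Xelaev18024021m had 4.71 and 8.94 RPKM against 2.78 and 1.89, higher by 1.29 ± 0.29 (0.0275). The latter call was lost without control 3 or Sia 2 (adjusted p 0.169 to 0.538), without the level filter (0.05465) and without the batch term (0.571). The frzb.S level was 147 and 168 RPKM against 131 and 103, above the controls, with a log2 difference of 0.52 ± 0.16 (adjusted p = 0.0973). The level of sfrp2.S was 13.4 and 13.6 RPKM against 23.4 and 24.5, below its controls, with a difference of -0.97 ± 0.26 (adjusted p = 0.0644). In Sia embryos 4 of 13 members were higher and none lower, where 4.16% of rows were called.

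The effects of lithium and siamois were set against each other within the same fit. They share the control of batch 3, and 5.85% of all rows differed. In the main fit Xelaev18025927m alone differed among members, being lower after LiCl by 1.73 ± 0.42 (adjusted p = 0.0316). The call was lost without either LiCl library, either Sia library or control 2 (adjusted p 0.0541 to 0.181). It was also lost with a pseudocount of 0.1 RPKM (0.0669), without the level filter (0.0665), without the batch term (0.114) and in limma-voom (0.095). limma-voom instead called frzb.S (-0.65, adjusted p = 0.0252), Xelaev18024021m (-1.57, 0.01055) and sfrp1.S (-2.64, 0.0131). With a pseudocount of 0.1 RPKM, limma called sfrp1.S (-1.83, 0.0222). In the main fit the difference was -0.27 ± 0.28 (0.662) for dkk1.S and 0.55 ± 0.27 (0.279) for dkk1.L.

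The libraries labelled Wnt8 had both dkk1 rows called higher and no other member called in the main fit. They had 27.6, 37.3 and 48.4 RPKM of dkk1.S against 12.8, 14.1 and 16.2 in their controls, a log2 rise of 1.33 ± 0.21 (adjusted p = 0.0156). For dkk1.L the levels were 14.8, 19 and 20.8 against 7.03, 7.04 and 10.1 RPKM, a rise of 1.14 ± 0.20 (0.0345). All values were above all controls. Both calls were lost without any one of controls 4, 5 and 6 or of replicates 2 and 3 labelled Wnt8 (adjusted p 0.0785 to 0.165 for dkk1.S and 0.113 to 0.228 for dkk1.L). Only 0.462% of all rows were called in this comparison.

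Other members in the libraries labelled Wnt8 did not pass the test in the main fit, which does not show that they were unchanged. With only the libraries compared, 4 members were called in all, where 131 rows were called. The frzb.L level was 56.9, 64.3 and 70.4 RPKM against 40.2, 34.9 and 48.6, higher without overlap, with a difference of 0.63 ± 0.21 (adjusted p = 0.483). The level of dkkx.L was 0.337, 0.292 and 0.584 RPKM against 1.20, 0.973 and 2.51, lower without overlap, with a difference of -1.13 ± 0.30 (0.236). Compared with the LiCl effect, 4.56% of rows differed, and sfrp2.L was lower after LiCl by 1.45 ± 0.36 (adjusted p = 0.0439). That call was lost in 10 of the fits that left out 1 library (adjusted p 0.0638 to 0.134), and its size was 0.71 without LiCl library 1. Those libraries were controls 1 to 6, the 3 labelled Wnt8 and LiCl 1.

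After Cerberus mRNA some members fell, some rose and the rest were not called. The frzb rows, dkk1.S, Xelaev18024021m and dkkx.L fell, and both sfrp2 rows and sfrp1.S rose. Of 13 members, 5 were lower and 3 higher, where 4.54% of rows were called. Of the 3, sfrp1.S was tested mainly because of its level in the Cer libraries, so that count is a description. The frzb.S level was 35.8, 24.3 and 37.6 RPKM in Cer libraries and 81.0, 64.5 and 86.7 in their controls. It fell by 1.25 ± 0.14 on the log2 scale (adjusted p = 0.000101) without overlap. For frzb.L the values were 18.3, 9.28 and 14.6 against 40.2, 34.9 and 48.6 RPKM, and the fall was 1.56 ± 0.21 (0.000534).

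Of the dkk1 copies, dkk1.S alone was called here, and the difference between the copies was not tested. Cer libraries had 6.80, 4.70 and 6.13 RPKM of dkk1.S against 12.8, 14.1 and 16.2, a fall of 1.23 ± 0.21 (adjusted p = 0.00304) without overlap. They had 8.29, 3.82 and 6.03 RPKM of dkk1.L against 7.03, 7.04 and 10.1. These overlapped, and the difference of -0.42 ± 0.20 missed the threshold (0.363) but passed without Cer 1 (-0.78, adjusted p = 0.00651). A label field of Cer 1 names stage 10, and the part of stage in this value was not tested. The .L share was 49.8% ± 5.05 (n = 3) in Cer libraries and at most 41.5% in controls.

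Of the crescent rows, Xelaev18024021m alone was called, and the difference between these rows was not tested either. Xelaev18024021m was at 1.47, 0.730 and 1.06 RPKM against 3.64, 2.30 and 7.19, a fall of 1.52 ± 0.25 (adjusted p = 0.00285). Xelaev18025927m had 1.75, 1.01 and 0.601 RPKM against 0.462, 0.393 and 1.85, with overlap and a difference of 0.29 ± 0.31 (0.754). Without Cer 3 that difference was 0.86 (adjusted p = 0.0372). The rarer row made up 49.5% ± 11.7 of crescent RNA in Cer libraries and 15.1% ± 6.51 in controls. dkkx.L had 5 reads in the 3 Cer libraries against control levels of 1.20, 0.973 and 2.51 RPKM, and its fitted difference was -1.79 ± 0.30 (0.00289).

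The sfrp2 rows were highest of all conditions in Cer embryos. Levels of sfrp2.L were 61.7, 40.1 and 59.5 RPKM against 22.1, 15.7 and 19.3 in controls, a log2 rise of 1.46 ± 0.23 (adjusted p = 0.00213). For sfrp2.S they were 33.9, 33.4 and 39.6 against 20.2, 16.5 and 19.9 RPKM, a rise of 0.90 ± 0.23 (0.0429). No Cer library overlapped with any library of another stage 10.5 group in either row. The sfrp2.S call was lost in 7 of the fits without 1 library (adjusted p 0.0562 to 0.201), those without controls 2, 4, 5 or 6 or any Cer library. The sfrp1.S level was 1.34, 1.12 and 2.93 RPKM on 292 reads against 0.344, 0.140 and 0.550, higher by 1.39 ± 0.18 (0.000371). In whole embryos sfrp1.S reached 1 RPKM in the Cer libraries and 1 bCatMO library, so it was tested mainly because of them.

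**Figure D2:**
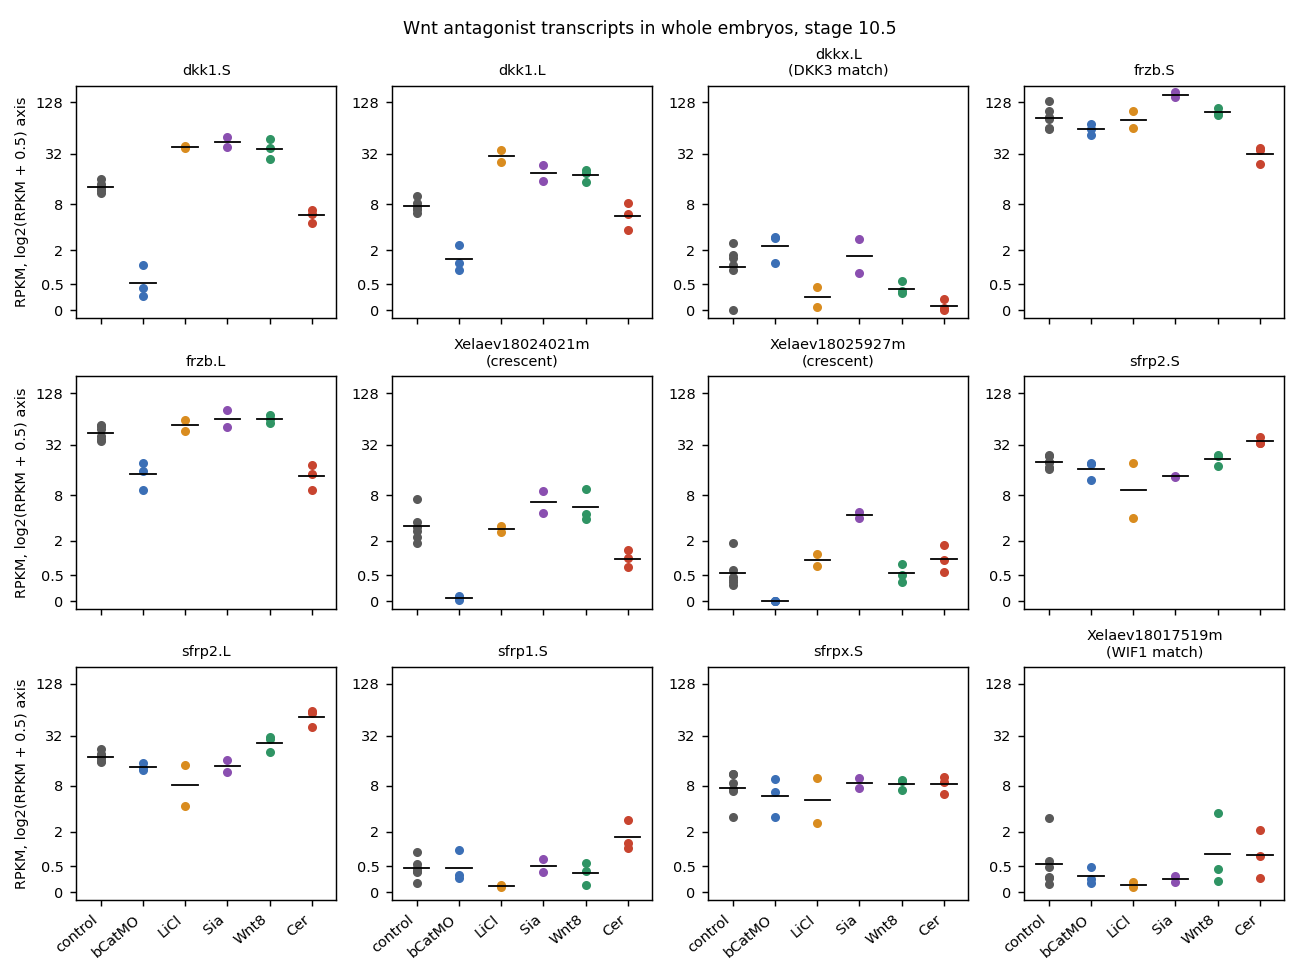
RPKM of the member rows in the whole-embryo libraries of stage 10.5 by treatment, on a log axis of RPKM + 0.5, with points for libraries and bars for the mean of the log2(RPKM + 0.5) values. For dkk1.S, Sia, LiCl and Wnt8 libraries lie between 27.6 and 50.7 RPKM, controls between 11.0 and 16.2 and bCatMO libraries at or below 1.17. For sfrp2.L the Cer libraries alone lie above 40 RPKM.

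Both the morpholino and Cerberus mRNA lowered dkk1.S, frzb.L and Xelaev18024021m, and their effects were compared directly, with controls from separate batches. Between these effects 4.72% of rows differed. The row frzb.S was called lower in both treatments as well, though its morpholino call was lost without some single libraries, the level filter or the batch term. The morpholino effect was lower by 2.31 ± 0.29 for dkk1.S (adjusted p = 0.00058) and by 1.57 ± 0.28 for dkk1.L (0.00633). It was also lower for sfrp2.L, by 1.80 ± 0.33 (0.00723), for sfrp1.S, by 1.57 ± 0.25 (0.00309), and for sfrp2.S, by 1.25 ± 0.32 (0.0461). The row sfrp1.S was tested mainly because of its level in the Cer libraries, so its difference here is a description. For dkkx.L the morpholino effect was higher by 2.88 ± 0.42 (0.00153). For the crescent row Xelaev18024021m the difference was -0.95 ± 0.36 (0.202), and for the other, Xelaev18025927m, -1.15 ± 0.44 (0.210). Both passed with a pseudocount of 0.1 RPKM, at -2.34 (0.00484) and -2.78 (0.0256), and without Cer 3, at -1.31 (0.0335) and -1.71 (0.00292). Xelaev18025927m also passed without control 6 (0.0248) and in limma-voom (0.0361). The frzb rows did not pass, with differences of -0.16 ± 0.30 for frzb.L (0.865) and 0.65 ± 0.19 for frzb.S (0.0879). The sfrp2.S call was lost in 11 of the fits without 1 library (adjusted p 0.0525 to 0.131), and leaving out control 2 or bCatMO 2 brought frzb.S past the threshold (0.00718 to 0.0404).

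**Figure D3:**
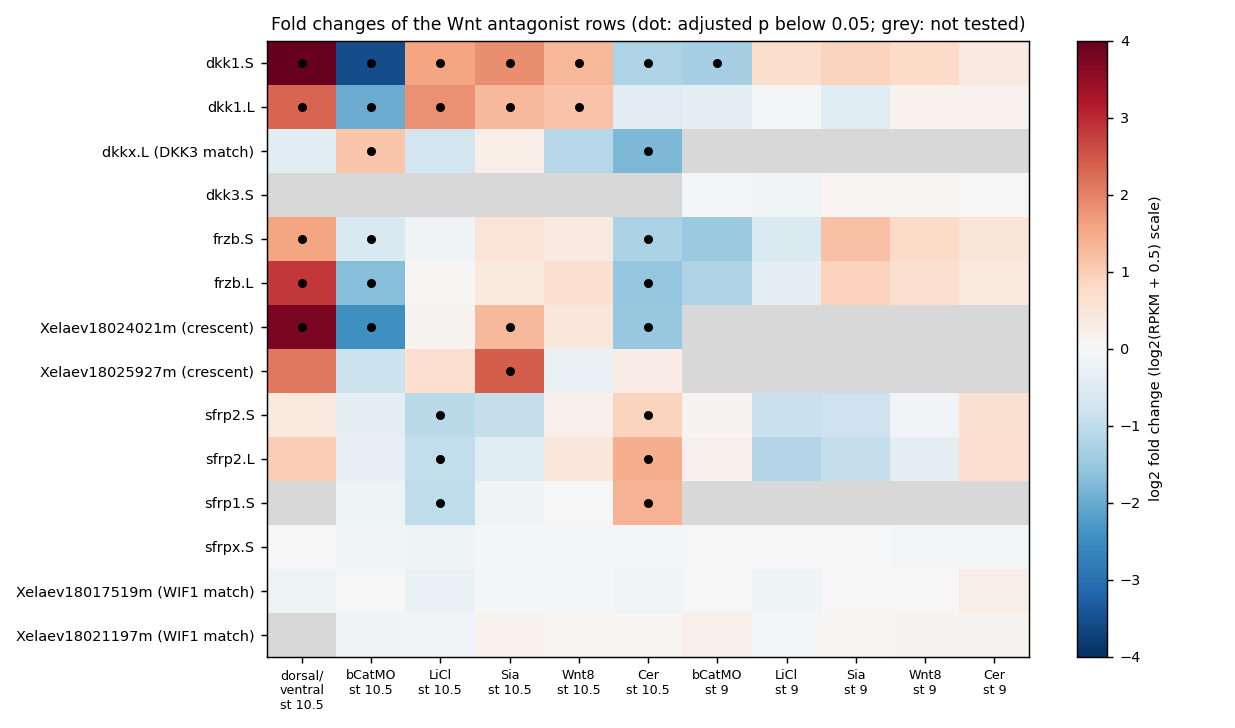
Log2 difference of each member row in each comparison with its controls at stage 10.5 and stage 9 and between dorsal and ventral half-embryos, as a heat map in log2(RPKM + 0.5) units, with dots where the adjusted p is below 0.05 and grey where a row was not tested. The dkk1.S row runs from -3.54 in bCatMO to 4.16 between the half-embryos, and the sfrp2 rows are positive in Cer and negative in LiCl.

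Ranked by mean level at stage 10.5, dkk1.S ran from Sia (44.8 RPKM) through LiCl (38.5), Wnt8 (37.8) and dorsal half-embryos (30.7), which overlapped as neighbours, to controls (13), Cer (5.88) and ventral half-embryos (1.42). The step from dorsal half-embryos to controls, that from controls to Cer and that from Cer to ventral half-embryos had no overlap. Ventral half-embryos and bCatMO (0.605) overlapped. For dkk1.L the order began with LiCl (30.8), apart from Sia (19.4), dorsal half-embryos (18.2) and Wnt8 (18.2), and those were apart from controls (7.69). From there to Cer (6.05), ventral half-embryos (3.53) and bCatMO (1.54) each neighbour overlapped. For frzb.S every neighbouring pair of groups overlapped, from Sia (158) to Cer (32.6). For frzb.L a single gap was seen, between controls (44.9) and bCatMO (14.9), with Cer (14.1) and ventral half-embryos (10.3) below.

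At stage 9, before gastrulation, dkk1, frzb and sfrp2 rows were already measurable, and limma called a single member, dkk1.S in the morpholino libraries. Control levels of dkk1.S were 7.41, 2.66, 6.48, 5.22 and 4.42 RPKM, and those of dkk1.L 6.30, 2.71, 5.77, 4.45 and 4.24. The controls of frzb.S ran from 0.585 to 7.72 RPKM, a 13.2-fold spread, and those of frzb.L from 0.389 to 4.95, a 12.7-fold spread, with control 2 lowest for both. The sfrp2.L controls ran from 7.02 to 17.5 RPKM and the sfrpx.S controls from 9.20 to 14.8. Crescent was near background, with control medians of 0.0521 RPKM for Xelaev18024021m and 0.0355 for Xelaev18025927m. In Sia libraries of stage 9 the latter row had 0.802 and 1.19 RPKM, above all controls, which were at most 0.128. It had 1 library at 1 RPKM and was not tested.

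The morpholino libraries of stage 9 had 1.44 and 1.76 RPKM of dkk1.S against 5.22 and 4.42 in their controls. Both were below every control, and dkk1.S fell by 1.34 ± 0.26 on the log2 scale (adjusted p = 0.0385). The call was lost without either morpholino library or without control 3, 4 or 5 (adjusted p 0.0661 to 0.446), and limma-voom did not make it (0.115). For dkk1.L the values were 3.47 and 3.13 against 4.45 and 4.24 RPKM, with a difference of -0.35 ± 0.20 (0.994). The frzb rows had 0.852 and 0.411 RPKM of frzb.S against 5.09 and 1.22, and 0.196 and 0.123 of frzb.L against 1.81 and 0.497. Each pair was lower without overlap, with differences of -1.48 ± 0.36 (0.141) and -1.20 ± 0.26 (0.0780), the latter past the threshold with a pseudocount of 0.1 RPKM (0.0202). Of 10 members 1 was called lower, where 0.696% of 18530 rows were called.

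No member was called by limma in the other treatments of stage 9. In LiCl libraries 0.448% of rows were called, and 3 of 10 members had an unadjusted p below 0.05. In Sia libraries these were 0.281% and 6 members, in those labelled Wnt8 0.108% and 3, and in Cer libraries 0.399% and 3. The shares rest on adjusted p and the member counts on unadjusted p, so they are not comparable. The share of all rows at an unadjusted p below 0.05 was not computed, so the member counts are a description. limma-voom on the recovered reads called 2 members in LiCl, both sfrp2 rows, where it called 174 rows in all. It called no member in the other 3 treatments. The levels of sfrp2.L were 8.19 and 2.53 RPKM after LiCl and 6.02 and 5.02 in Sia, against 17.5 and 7.02 in the controls of those batches. They were lower in each batch, by 1.18 ± 0.24 (adjusted p = 0.0613) and 0.96 ± 0.24 (0.281) on the log2 scale. In Cer libraries sfrp2.L had 25.8, 13.1 and 27.8 RPKM against 16.1, 9.16 and 14.7, higher in each batch, by 0.68 ± 0.19 (0.361).

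The treatment effects at the 2 stages were compared by the difference of their log2 values over 17746 rows tested at both. Of 45 combinations of a member and a treatment, 7 had an adjusted p below 0.05. The morpholino effect was stronger at stage 10.5 for dkk1.S, by -2.20 (adjusted p = 0.00217), and for dkk1.L, by -1.64 (0.00768), where 0.175% of rows differed. The effect on dkk1.L at stage 10.5 was also above that at stage 9 by 1.91 for LiCl (0.00275) and by 1.77 for Sia (0.00722), where 3.29% and 0.355% of rows differed. In Cer libraries the change between stages was -1.75 for frzb.S (0.00862), -1.94 for frzb.L (0.000451) and -1.58 for dkk1.S (0.00329), where 1.26% of rows differed. At stage 9 the Cer libraries had 9.38, 4.12 and 7.37 RPKM of dkk1.S against 7.41, 2.66 and 6.48 in controls, each a little above its own control. For Wnt8 no member differed between stages in limma at an adjusted p below 0.05, where 0.175% of all rows did. At an unadjusted p below 0.05 there were 2 of 9 members, and the share of all rows at that level was not computed. Stages were fitted separately on tables of their own, and limma-voom gave 5 such differences, which were not matched to these 7.

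**Figure D4:**
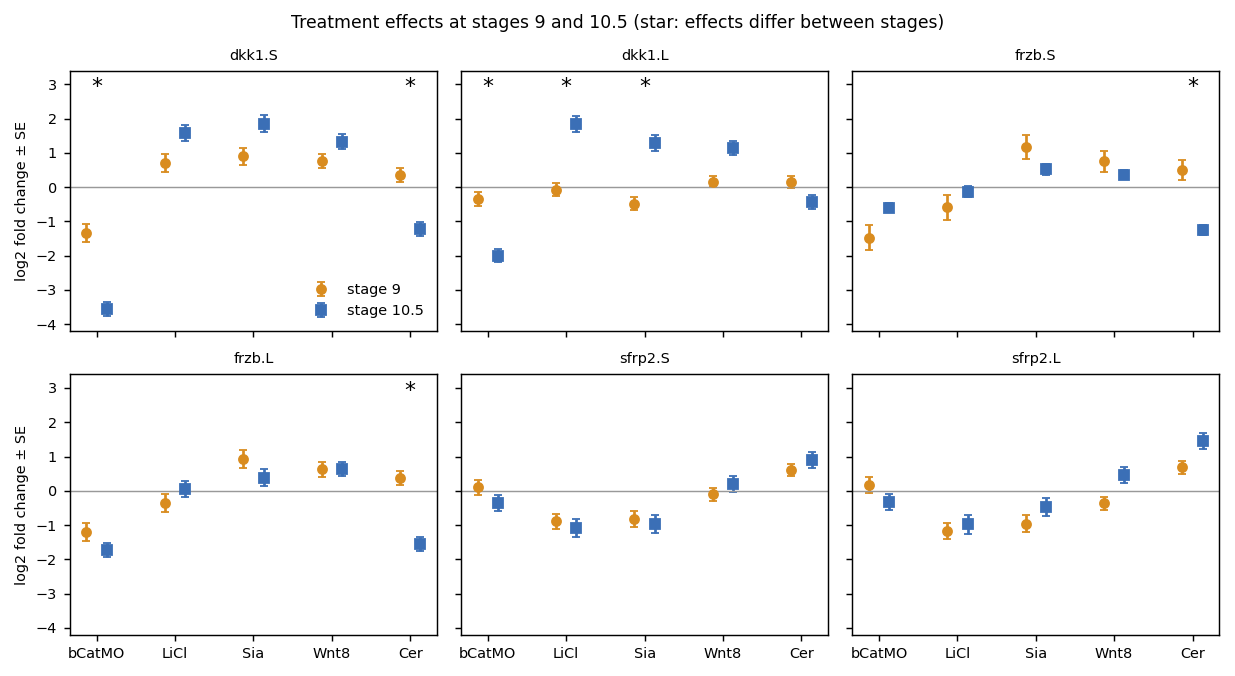
Log2 difference from controls for dkk1, frzb and sfrp2 rows at stage 9 and stage 10.5 for each treatment, with standard errors as bars and a star where the effects of the stages differ at an adjusted p below 0.05. The bCatMO point of dkk1.S moves from -1.34 at stage 9 to -3.54 at stage 10.5, and the Cer point of frzb.L from 0.38 to -1.56.

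The share of the dkk1 copies was also described at stage 9, without a test. The .L share was 47.7% ± 1.94 in 5 controls, 67.3% ± 4.70 in bCatMO (n = 2) and 24.2% ± 4.65 in Sia (n = 2). It was 33.5% ± 3.66 in LiCl (n = 2), 36.8% ± 5.34 in Wnt8 (n = 3) and 44.1% ± 1.88 in Cer (n = 3). The bCatMO libraries lay above every control, and the Sia, LiCl, Wnt8 and Cer libraries below every control, Cer by the least (at most 45.8% against at least 46.0%). The treated groups held 2 or 3 libraries, and how often other pairs of copies separate in this way was not computed. The separation is therefore a description. At stage 10.5 the Sia share was 30.0% ± 2.68 and the LiCl share 44.1% ± 4.48, against controls between 33.3% and 41.5%. For frzb the .L share in bCatMO was 20.9% ± 3.01 at stage 9 and 19% ± 5.31 at stage 10.5, both below all controls, which were at least 26.2% and 28.7%. The sfrp2.L share was 58.4% ± 3.03 in controls at stage 9 and 47.4% ± 3.72 at stage 10.5, and 59.7% ± 4.99 in Cer libraries of stage 10.5.

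**Figure D5:**
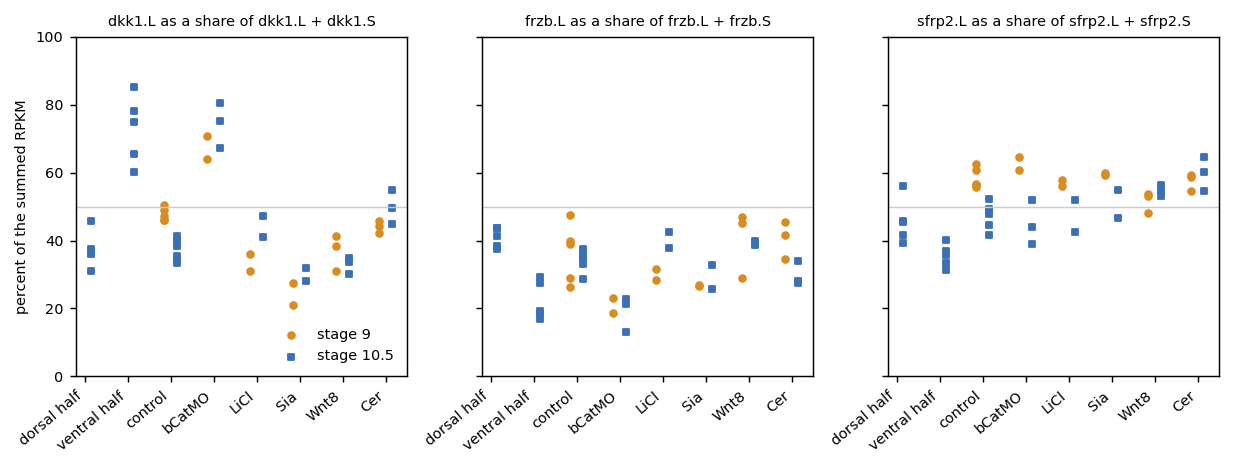
Share of the .L copy in the RPKM sum of both copies of dkk1, frzb and sfrp2, in percent, with points for libraries by group and stage. For dkk1 the ventral half-embryos (60.3% to 85.2%) and bCatMO libraries (67.3% to 80.5%) of stage 10.5 lie above the dorsal half-embryos (30.9% to 45.7%), and for frzb both lie below them.

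Some low members were highest in libraries that shared a batch, across controls and treatments, and the part of batch was not tested. The WIF1 row Xelaev18017519m had 3.15 RPKM in control 6 of stage 10.5, 3.65 in the library labelled Wnt8 and 2.14 in the Cer library of the same batch, against at most 0.809 in other whole embryos of those groups. At stage 9 it had 3.16, 3.09 and 4.69 RPKM in the control, Wnt8 and Cer libraries of batch 3 and at most 0.206 in the other libraries of these groups. The other WIF1 row, Xelaev18021197m, had 0.988, 1.48, 1.10 and 1.07 RPKM in the control, bCatMO, LiCl and Sia libraries of stage 9 batch 4, and at most 0.109 in those of batch 5. In batch 1 of stage 9 this row had 0.502, 0.686 and 0.746 RPKM in the control, Wnt8 and Cer libraries. No comparison called either row. The sfrpx.S row had an absolute log2 difference of at most 0.18 in the comparisons of whole embryos with controls, while its 6 controls at stage 10.5 spread 3.52-fold.

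Other genes of the pathway, listed by role without the members, were tested in the same fits. Between half-embryos, where 0.678% of all rows were called, 1 of 8 ligand rows was lower dorsally, wnt8a.S by 1.29. Of 17 rows for other extracellular or membrane inhibitors 5 were higher, led by cer1.S (5.02), cer1.L (4.37) and trabd2a.L, a Tiki metalloprotease that inactivates Wnts. Of 29 receptor rows 2 were higher, both matched to FZD8 (Xelaev18030716m at 3.90 and fzd8.S at 2.76), and none of 9 rows for extracellular processing or of 2 for Dkk receptors was called. Of 24 target or feedback rows 1 was higher, myf5.L (2.14). The median log2 difference was 0.12 over the other inhibitors and -0.02 over all rows.

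In morpholino embryos of stage 10.5, where 7.15% of all rows were called, 7 of 18 other inhibitor rows fell and 1 rose. The falls were led by cer1.S (-5.46), cer1.L (-3.86) and trabd2a.L (-1.21). Of 29 receptor rows 7 fell and 1 rose, with fzd8 rows leading (Xelaev18030716m -2.40, fzd8.S -2.38 and fzd8.L -2.25), and 10 of 24 target rows fell and none rose, led by hoxd1.S (-2.05). The single ligand row called, wnt8a.S, was higher by 0.82. In LiCl embryos, where 14.2% of all rows were called, 16 of 24 target rows rose and none fell. The rises were led by hoxd1.S (3.59), sp5.L (3.05) and hoxd1.L (2.95), and both wnt8a rows were lower (wnt8a.S -2.43, wnt8a.L -2.24). Of 7 ligand rows 1 rose and 2 fell. Of 29 receptor rows 7 rose and 2 fell, and of 18 other inhibitor rows 5 rose and 1 fell. The direction of the smaller LiCl changes depends on scaling: of all rows called, 26.8% were higher with the deposited RPKM and 52.4% with size factors.

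In Sia embryos, where 4.16% of all rows were called, 3 of 7 ligand rows were lower, led by wnt8a.L (-3.24), and 1 was higher. There 8 of 29 receptor rows were higher, led by Xelaev18030716m (2.12), and 1 was lower. Of 24 target rows 3 were higher and 4 lower, and of 18 other inhibitor rows 3 were higher and none lower. In the libraries labelled Wnt8, both wnt8a rows were lower at stage 10.5 (wnt8a.S -1.58, wnt8a.L -1.19) and none of 24 target rows was called by limma. Of all rows 0.462% were called there, so 0 of 24 is near the share over all rows. At stage 9, where 0.108% of all rows were called, the libraries labelled Wnt8 had 4 of 18 target rows higher. These were led by hoxd1.S (2.17) and hoxd1.L (1.97), and both fzd10 rows were higher. In Cer embryos, where 4.54% of all rows were called, 5 of 7 ligand rows were lower (wnt8a.L -1.48, wnt8a.S -1.21, wnt5b.S -1.10). There 12 of 24 target rows were lower, led by t.L (-3.61), the brachyury gene, and 1 was higher. Of 18 other inhibitor rows 2 rose and 3 fell. Of 29 receptor rows 5 rose and 5 fell, and the 3 largest rises were of FZD4 rows (Xelaev18016347m 1.93, Xelaev18013898m 1.85 and Xelaev18004205m 1.83). The Dkk receptor row was called in no treatment.

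Rows of other genes with the most similar pattern were found by Pearson correlation of log2(RPKM + 0.5) over the 29 libraries of stage 10.5. These libraries share batches and controls and form 8 groups, so the values describe likeness only. Closest to dkk1.S were rows matched to CHRD (Xelaev18029538m, chordin, a BMP antagonist, 0.97) and OTX2 (Xelaev18039840m, a head homeobox gene, 0.97) and gsc.S (goosecoid, 0.97). Among the rows closest to dkk1.L were admp.L (0.95) and gsc.S (0.93). For frzb.L they were gsc.L, dmbx1.S and cer1.L (each 0.94), and for frzb.S the rows Xelaev18004073m (0.92), Xelaev18047362m (FZD7, 0.91) and Xelaev18002038m (0.91).

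For the crescent row Xelaev18024021m the closest were tmem150b.S (0.96), dmbx1.S (0.96) and cnrip1.L (0.94). Those of sfrp2.L were sox11.L (0.87), sox11.S (0.86) and otx1.L (0.84), transcription factors of neural ectoderm, and those of sfrp2.S were cyp26a1.L (0.80), Xelaev18038148m (VGLL4, 0.77) and mrps31-like.S (0.76). For sfrpx.S they were slc19a1.L (0.93), Xetrov90027454m.L (CRY1, 0.91) and fchsd1.S (0.88). Between members, r was 0.96 for the dkk1 copies, 0.93 for frzb.L with Xelaev18024021m, 0.92 for dkk1.S with Xelaev18024021m and 0.89 for dkk1.S with frzb.L. It was 0.88 for the frzb copies and 0.80 for the sfrp2 copies, while dkkx.L and sfrp2.L gave -0.40.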

How the data were processed

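Per the labels' protocols, polyA+ RNA was made into TruSeq libraries and read on a HiSeq as single reads of 100 bases. Per the file headers, the authors deposited RPKM for each gene model, 1 file for each stage. The submitters' processing notes list TopHat2 2.09 and DESeq without saying what each did. The sources used here give no genome build, annotation version or counting tool. Dropped at stage 10.5 were 6 repeated rows, all at 0, and for each stage 1 emptied row and 1 column of authors' averages were not used. The LiCl column numbered 3 was taken as LiCl replicate 2, whose label names control 3. For replicate 1 of Wnt8 and Cer at stage 10.5 one label field names stage 10.

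RPKM are not counts, so limma 3.58.1 in R 4.3.3 (lmFit, eBayes with trend) was run on log2(RPKM + 0.5) of rows with at least 1 RPKM in 2 libraries, two-sided, with Benjamini-Hochberg adjustment over all rows and a threshold of 0.05. The whole-embryo libraries of each stage shared a fit with terms for group and batch (8 residual degrees of freedom at stage 10.5, 7 at stage 9), and the half-embryos on their own, 5 against 5. Stage differences used the difference of 2 fitted effects over its standard error. Same-numbered half-embryos deviated together (correlations 0.540 to 0.901, other numbers at most 0.0498), so the numbers pair these samples. Whole reads were recovered for 100% of 34080 rows at stage 10.5 and 30836 at stage 9, within 0.005 of a whole number, and used for limma-voom as an alternative. Replicates of a group differed by a chi-square of at least 43.2 per degree of freedom. Floors of 3 reads cover counting error only. Overlap of treated libraries refers to the controls of their own batches unless other groups are named. The share of all rows whose groups did not overlap was not computed, so lack of overlap is a description. Other steps used Python 3.11.15, numpy 2.4.6, pandas 2.3.3, scipy 1.17.1 and matplotlib 3.10.9. Fits were tested on simulated data.

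Named are all members, at most 3 called pathway rows per role and comparison by size of change, and for members with a group mean of at least 5 RPKM the 3 most correlated rows of other genes, except 1 that is not reported here. Members and lists were chosen with earlier results of these data known. Alternatives were pseudocounts of 0.1 and 1 RPKM, no level filter, median-of-ratios size factors, limma-voom, the block added or removed, only the libraries compared, and leaving out each library.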

Additional observations from a re-analysis of the deposited data

Results flagged for a closer look

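A library was marked when its gap to the nearest other library exceeded Dixon's 95% limit as a share of the group's range. This was looked for in 49 combinations of a member row and a group of 4 to 10 libraries, and met in 14. For independent values chance marks about 1 in 20, but these combinations share libraries. The count is therefore a description and cannot be set against chance. Dorsal library 1 was the highest of 5 for frzb.L (142 RPKM, gap 0.767), for the crescent rows Xelaev18024021m (24.6 RPKM, 0.841) and Xelaev18025927m (7.80 RPKM, 0.82) and for dkkx.L (2.82 RPKM, 0.732). Ventral library 1, which has the same number, was highest for dkkx.L (4.86 RPKM, 0.943) and sfrp1.S (0.981 RPKM, 0.717). The WIF1 row Xelaev18021197m was highest in dorsal library 2 (0.716) and ventral library 2 (0.828). The WIF1 row Xelaev18017519m was highest in dorsal library 5 (0.86) and ventral library 5 (0.775), in control 6 of stage 10.5 (0.825) and in control 3 of stage 9 (0.945). Control 6 of stage 10.5 was also the highest for Xelaev18024021m (7.19 RPKM, 0.669) and Xelaev18025927m (1.85 RPKM, 0.772). The part of library or batch in these values was not tested.

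The effect of a treatment differed between stages, by the test of the difference itself, in 7 of 45 combinations. The log2 effect at stage 10.5 minus that at stage 9 was -2.20 for dkk1.S and -1.64 for dkk1.L in bCatMO. For dkk1.L it was 1.91 in LiCl and 1.77 in Sia. In Cer it was -1.75 for frzb.S, -1.94 for frzb.L and -1.58 for dkk1.S.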

How the results depend on the processing

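Of 2535 alternative values for single members, 2349 kept their direction and side of the threshold, 126 lost the call, 59 gained one and 1 reversed. Of 39 calls, 20 held under every alternative. The losses named beside single calls above are not a full list. The reversal was sfrp2.S in the LiCl effect minus the Sia effect, 0.51 (adjusted p = 0.0346) without LiCl replicate 1.

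Same-numbered half-embryos as a replicate block gave 6 members called between half-embryos instead of 5, and 422 rows in all instead of 125, and 0 of 38 member pairs, whose smallest p is then 0.0625. With no replicate block, that is without the batch term, the members called were 2 in LiCl (5 with it), 1 in Wnt8 (2) and 4 in Cer (8) at stage 10.5, 0 in bCatMO at stage 9 (1) and 0 for LiCl minus Sia (1). Stage differences were then 1 (7) and pathway rows 59 (148), and rows called overall at stage 10.5 fell to 166 in bCatMO, 146 in LiCl, 263 in Sia, 8 in Wnt8 and 335 in Cer. They fell to 51 in bCatMO at stage 9 and to 152 for LiCl minus Sia.

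Without the level filter the counts were 3 in LiCl, 0 in Wnt8, 0 in bCatMO at stage 9, 0 for LiCl minus Sia and 0 for LiCl minus Wnt8 (1). Rows called in all were then 1974, 39, 84, 1286 and 333 in that order. The main fit called 2668, 87, 129, 1101 and 859. A pseudocount of 0.1 gave 0 in Wnt8, 2 in bCatMO at stage 9 and 2 for LiCl minus Wnt8, and one of 1 gave 0 in bCatMO at stage 9. Rows called in all were then 68, 142 and 848 with 0.1, and 124 with 1. Size factors gave 1 in LiCl at stage 9 (0) and 0 for LiCl minus Wnt8, with 119 and 680 rows called in all (83 and 859 in the main fit). limma-voom gave 0 in bCatMO and 2 in LiCl at stage 9, and 3 for each of LiCl minus Sia and LiCl minus Wnt8. Over all rows it called 149, 174, 1273 and 1020 in that order. For LiCl minus Sia the 3 members did not include Xelaev18025927m, the row called in the main fit. Fits with only the libraries compared gave 4 in Wnt8 at stage 10.5, and 2 in bCatMO and 4 in LiCl at stage 9. Rows called in all were then 131 (87 in the main fit), 407 (129) and 672 (83). The cause of these changes was not tested. Size factors also moved the share of higher calls over all rows from 25.2% to 36.9% for LiCl minus Sia and from 17.8% to 45.1% for LiCl minus Wnt8.

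Leaving out 1 library gave 4 to 5 members between half-embryos, 4 to 6 in bCatMO, 3 to 5 in LiCl, 2 to 5 in Sia, 0 to 2 in Wnt8 and 7 to 8 in Cer. At stage 9 it gave 0 to 1 in bCatMO, LiCl and Wnt8, 0 to 2 in Sia and 0 in Cer. It gave 0 to 2 for LiCl minus Sia and for LiCl minus Wnt8, 5 to 7 for bCatMO minus Cer, 4 to 9 stage differences, 120 to 153 pathway rows and 29 to 40 pairs. Counts over all rows are not given for these fits, so the ranges are a description. Rows near 0.05 RPKM rest on a few reads per library, which limits their fold changes.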
